A study of Mus musculus with 7 samples.

Results

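Complement is a cascade of secreted proteins, receptors and regulators of innate immunity. The classical pathway starts when C1q, built from A, B and C chains, binds to a target. C4 and then C3 are cleaved and left on the surface as tags for phagocytes. The alternative pathway amplifies C3 cleavage through factor B and is held together by properdin. Small fragments of C3 and C5 signal to myeloid cells through C3aR and C5aR1. In the brain, microglia are a main source of C1q, and complement tagging is known for its part in the removal of synapses and debris.

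The transcripts of 9 genes of this system, chosen by gene symbol, were followed among the 50686 genes of the deposited tables. They encode the C1q chains (C1qa, C1qb, C1qc), the opsonin precursors C4b and C3, factor B (Cfb), properdin (Cfp) and the receptors C3ar1 and C5ar1. All 9 passed the filter of more than 10 expected counts in 1 or more libraries and were tested. RNA came from microglia of male C57BL/6 mice aged 3 to 4 months (Young, n = 4, mice 14C, 18C, 23C and 29C) or 21 to 22 months (Old, n = 3, mice 2posI, 3posI and 4posI), with 1 library per mouse and no drug treatment. All 7 mice had undergone transient ischemia, by 45 min of middle cerebral artery occlusion (MCAo), 4 days earlier, and all cells were sorted by CD11b and CD45 and as Bodipy+, which means loaded with neutral lipid stained by the dye Bodipy. The series therefore compares ages within ischemic, lipid-rich cells, and no sham or Bodipy- cells were analysed here. The study made the comparison to check in males the main pathways it had found raised in old females after ischemia.

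Libraries held 36574083 to 53002386 expected counts. All 10 listed microglia markers were detected in every library, and their summed level was 21130 to 31520 normalised read counts (CPM, scaled to library size) in the young mice and 10860 to 24560 CPM in the old mice. The lowest sum belonged to old mouse 3posI, which also held the highest summed level of 8 monocyte markers, at 2785 CPM against 176.3 to 471.3 CPM in the other 6 libraries, and of 7 markers of border-associated macrophages (BAM), at 1478 CPM against 125.8 to 527 CPM. Values that rest on 3posI are given with and without it. Young and old animals carry codes of different form, and no batch is labelled, so handling and age cannot be told apart. In such bulk samples, fewer cells of a type and less RNA per cell cannot be told apart either.

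The 9 genes lie on the minus strand in GRCm38. C1qb (chr4:136880129-136886187), C1qc (chr4:136889804-136893065) and C1qa (chr4:136895917-136898803) sit within 18.7 kb. C4b (chr17:34728380-34743882) and Cfb (chr17:34856374-34862518) sit within 134 kb of each other in the major histocompatibility region, and C3 (chr17:57203970-57228136) lies farther along the same chromosome. C3ar1 (chr6:122847138-122856161), C5ar1 (chr7:16246743-16259540) and Cfp (chrX:20925454-20931555) stand alone. RefSeq promoters of build GRCm38.p6 were matched for 6 of the 9 genes. The 250 bases before the RefSeq start site are shown for C1qb and C1qc, neighbours whose transcripts moved together. They are also shown for Cfp, the gene with the widest range between mice. The RefSeq start of C1qc lies within the gene bounds given above, so part of its stretch falls inside the annotated gene. Capitals mark matches on either strand to the letters GAGGAA, the core bound by the myeloid factor PU.1, or to GGG and CC with any 5 bases between them, a loose form of the NF-kB element.
C1qb promoter, chr4:136886201-136886450, minus strand: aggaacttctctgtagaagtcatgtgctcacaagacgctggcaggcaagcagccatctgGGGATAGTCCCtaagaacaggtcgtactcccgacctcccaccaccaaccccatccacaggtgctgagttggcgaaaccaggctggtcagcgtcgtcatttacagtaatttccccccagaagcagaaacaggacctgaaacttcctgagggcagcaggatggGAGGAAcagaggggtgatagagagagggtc
C1qc promoter, chr4:136892915-136893164, minus strand: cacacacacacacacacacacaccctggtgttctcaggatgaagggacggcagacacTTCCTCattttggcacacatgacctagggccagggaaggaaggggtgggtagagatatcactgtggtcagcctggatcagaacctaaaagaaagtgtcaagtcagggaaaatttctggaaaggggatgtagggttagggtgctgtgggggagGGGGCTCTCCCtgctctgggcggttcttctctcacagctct
Cfp promoter, chrX:20931556-20931805, minus strand: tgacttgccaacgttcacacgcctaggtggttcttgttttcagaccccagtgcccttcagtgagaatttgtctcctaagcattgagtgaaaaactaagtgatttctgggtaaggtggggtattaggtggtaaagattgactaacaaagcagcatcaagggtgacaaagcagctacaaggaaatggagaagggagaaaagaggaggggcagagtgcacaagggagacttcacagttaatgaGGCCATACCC
The PU.1 letters lay 30 bases before the RefSeq start of C1qb and 193 bases before that of C1qc. They were in none of the other 4 matched promoters. They occur in 23.3% of all 32851 promoters of this length. The loose NF-kB letters were in 5 of the 6 promoters and in 45.8% of all. A hit on both strands that differs by 1 base in position is the same stretch. The interferon elements ISRE (GAAA, any 2 bases, GAAA, in 2.98% of promoters) and TTCNNNGAA (GAS, 7.02%) and the C/EBP letters TTGCNNCAA (1.74%) matched none of the 6. A match of letters is a description of the sequence only.

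Levels per transcript length, in TPM, separated the 9 genes into tiers. The C1q chains were among the most abundant transcripts of these cells. C1qb ranged from 7829 to 12020 TPM and held rank 8 to 13 among all genes of a library. C1qa ranged from 6654 to 11280 TPM (rank 8 to 15) and C1qc from 5068 to 9157 TPM (rank 11 to 18). The receptors formed the next tier, with C5ar1 at 264.5 to 450.6 TPM (rank 276 to 512) and C3ar1 at 180.1 to 283.6 TPM (rank 475 to 733). C4b ranged from 19.36 to 65.32 TPM, Cfp from 6.02 to 194.4 TPM, Cfb from 6.53 to 89.02 TPM and C3 from 3.02 to 17.47 TPM. Ordered by the median over 7 libraries, the genes ran C1qb, C1qa, C1qc, C5ar1, C3ar1, C4b, Cfp, Cfb and C3. The ranges did not overlap between C1qc and C5ar1 or between C3ar1 and C4b, and every other pair of neighbours overlapped. C1qa stood above C1qc and C5ar1 above C3ar1 within each of the 7 libraries, whereas Cfp stood above Cfb in 5 of 7.

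**Figure D1:**
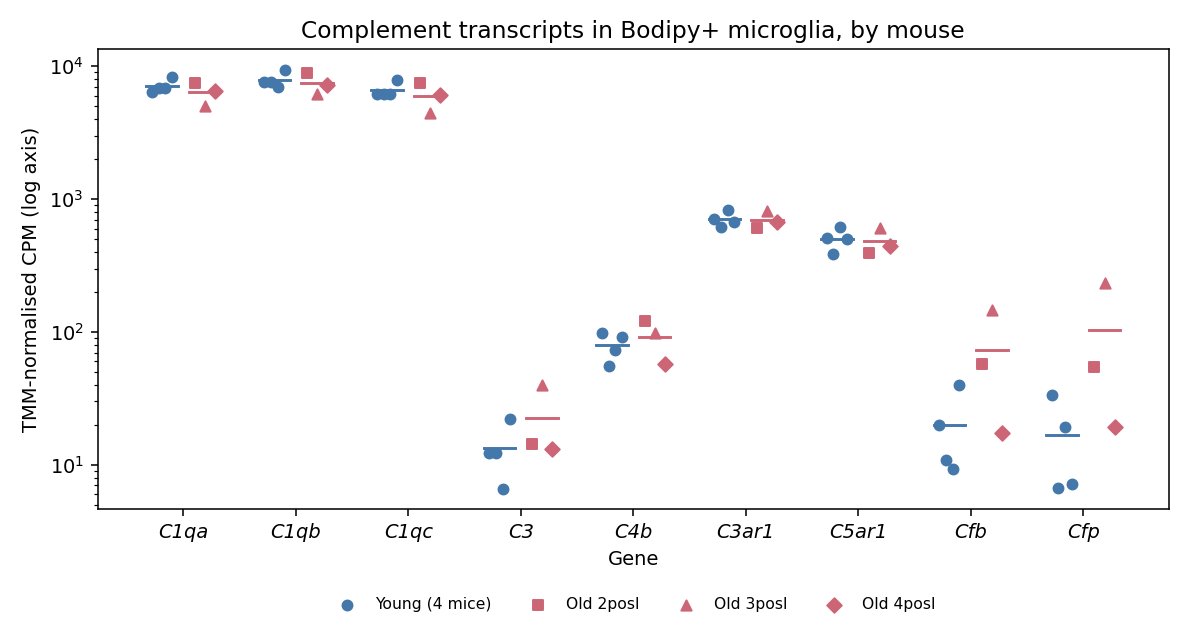
Each point is the TMM-normalised CPM of 1 gene in 1 mouse, on a log axis, with young mice in blue, old mice in red by mouse, and a horizontal bar at each group's mean. The ages overlap for all 9 genes, and 3posI (triangle) is the highest point for C3, Cfb and Cfp and the lowest for the C1q chains.

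None of the 9 genes passed an adjusted p of 0.05 between old and young mice in edgeR's quasi-likelihood test, where 137 of 18133 genes (0.756%) passed, 0.551% higher and 0.204% lower in old mice. For 2 of the 9, Cfb and Cfp, the unadjusted p was under 0.05, against 18.8% of all genes tested. The ages did not separate completely in CPM for any of the 9, against 17.6% of all genes (8.61% higher and 8.99% lower in old mice). The fold change was above 0 for 4 genes and below 0 for 5, and its median was -0.01 on the log2 scale, as for all genes tested (-0.01). The count of 0 also held with limma-voom, which called 0.767% of all genes, with DESeq2, which called 7.85%, without the filter on low counts (1.05%), with a length offset (1.18%) and with any 1 library left out. DESeq2 called 1423 genes in all, none of them among the 9.

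The C1q chains initiate the classical pathway. C1qa, which encodes the A chain, measured 6338, 6797, 6802 and 8325 CPM in young mice 14C, 18C, 23C and 29C and 7511, 5045 and 6555 CPM in old mice 2posI, 3posI and 4posI. Only 3posI lay below the young range. Old over young, the log2 fold change was -0.15 (SE 0.21, 95% interval -0.62 to 0.33, edgeR adjusted p = 0.739).

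C1qb, which encodes the B chain, measured 7636, 7569, 6959 and 9299 CPM in the young mice and 8950, 6223 and 7270 CPM in the old mice. The old values lay on both sides of most young values, and the log2 fold change was -0.07 (SE 0.21, 95% interval -0.54 to 0.40, edgeR adjusted p = 0.879). C1qc, which encodes the C chain, measured 6218, 6193, 6220 and 7864 CPM in the young mice and 7482, 4474 and 6076 CPM in the old mice. Here 3 young mice lay within a narrow band and 29C stood above them, and the log2 fold change was -0.14 (SE 0.22, 95% interval -0.65 to 0.37, edgeR adjusted p = 0.774).

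The chains kept nearly the same proportions in every mouse. C1qa made up 33.4 to 36.2% of their summed TPM, C1qb 35.3 to 40.0% and C1qc 25.9 to 28.6%, with overlapping ages for each. For the chains the highest young value was in 29C, the highest old value in 2posI and the lowest value of all in 3posI, where the summed microglia markers stood at 0.408 of the young mean. The chains themselves stood at 0.714 (C1qa), 0.791 (C1qb) and 0.675 (C1qc) of the young mean in that library. Without 3posI the log2 fold changes of C1qa, C1qb and C1qc were -0.0066, 0.04 and 0.03. By TPM, a two-sided exact permutation test (35 arrangements, smallest possible p 0.0286, run for each of the 9 genes and not adjusted) gave p = 0.171 for C1qa, p = 0.371 for C1qb and p = 0.314 for C1qc.

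The receptors for the C3a and C5a fragments had the fold changes nearest to 0. C3ar1 measured 705, 621, 831 and 667 CPM in the young mice and 608, 820 and 669 CPM in the old mice. Its old values spanned almost the whole young range, with a log2 fold change of -0.01 (SE 0.17, 95% interval -0.39 to 0.36, edgeR adjusted p = 0.973).

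C5ar1 measured 511, 389, 611 and 499 CPM in the young mice and 396, 605 and 447 CPM in the old mice. All 3 old values fell within the young range, and the difference on the log2 scale was -0.06 (SE 0.20, 95% interval -0.52 to 0.40, edgeR adjusted p = 0.899). Unlike the C1q chains, the receptors were highest among old mice in 3posI and highest among young mice in 23C. The permutation test of TPM gave an exact p = 0.571 for C3ar1 and an exact p = 0.657 for C5ar1.

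Factor B and properdin, which build and stabilise the alternative pathway convertase, had the largest fold changes of the 9, and these rested mainly on 3posI. Cfb measured 19.8, 10.8, 9.34 and 40.1 CPM in the young mice and 57.7, 146 and 17.2 CPM in the old mice. Old mice 2posI and 3posI lay above every young mouse and 4posI lay among them. The log2 fold change was 1.88 (SE 0.70, 95% interval 0.28 to 3.47, edgeR unadjusted p = 0.0263, adjusted p = 0.204). Without 3posI it was 0.90 (edgeR adjusted p = 0.484).

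Cfp, the X-linked gene of properdin, measured 33.8, 6.68, 19.3 and 7.12 CPM in the young mice and 54.5, 235 and 19.4 CPM in the old mice. Again 2posI and 3posI exceeded every young mouse, and 4posI fell within the young range. The log2 fold change was 2.62 (SE 0.84, 95% interval 0.70 to 4.55, edgeR unadjusted p = 0.0133, adjusted p = 0.162), and without 3posI it was 1.14 (edgeR adjusted p = 0.403). By TPM the permutation test gave an exact p = 0.0857 for Cfb and an exact p = 0.0571 for Cfp.

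**Figure D2:**
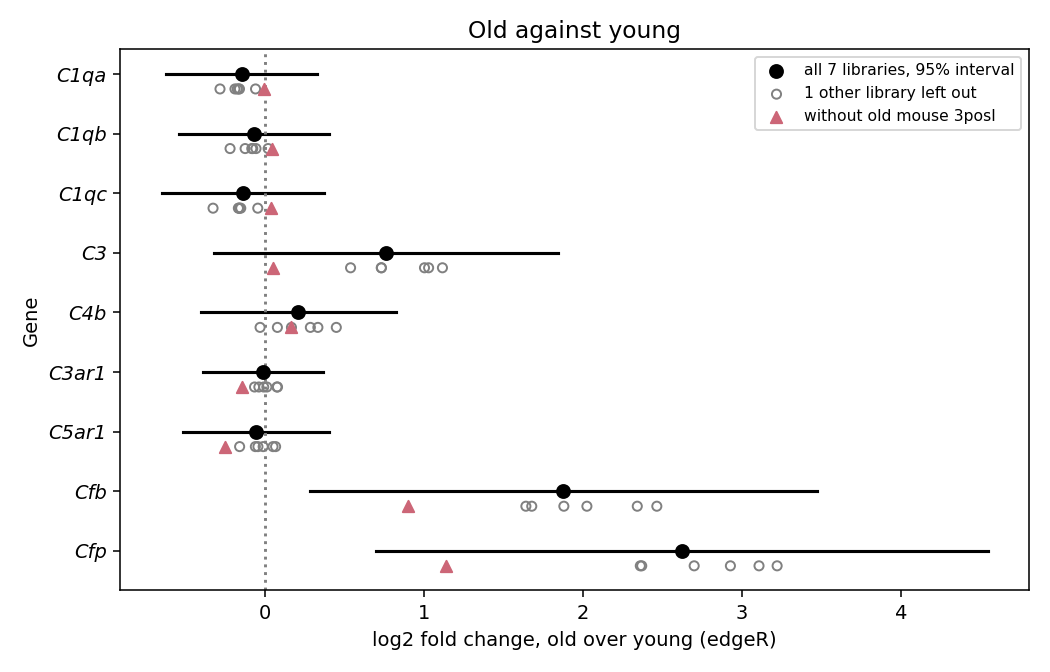
Black points and lines are log2 fold changes (old over young) from edgeR with their 95% intervals, open circles are the fits that leave out 1 other library and red triangles the fits without 3posI. The intervals of Cfb and Cfp lie above 0 before adjustment, and their points move to 0.90 and 1.14 without 3posI.

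C3, the central component on which the pathways converge, had the lowest median TPM of the 9. It measured 12.3, 12.3, 6.63 and 22.0 CPM in the young mice and 14.3, 40.1 and 13.2 CPM in the old mice. Only 3posI lay outside the young range. The log2 fold change was 0.76 (SE 0.47, 95% interval -0.32 to 1.84, edgeR adjusted p = 0.419) and 0.05 without 3posI. By TPM the exact permutation test gave p = 0.486.

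In 3posI, Cfp stood at 14.1 times the young mean, Cfb at 7.28 times and C3 at 3.01 times. The summed monocyte markers stood at 10.4 times and the summed BAM markers at 5.34 times the young mean in the same library. In the fit of old over young on all 7 libraries, all 8 and all 7 of these genes had a fold change above 0. None of them was called. In 2posI, Cfp was at 3.26 times and Cfb at 2.88 times the young mean, with monocyte markers at 1.64 times and BAM markers at 1.9 times. In 4posI, Cfp was at 1.16 times and Cfb at 0.861 times, with monocyte markers at 0.781 times and BAM markers at 0.6 times. Among young mice, 14C had the most Cfp and the highest monocyte and BAM sums (471.3 and 457.1 CPM). Cfb and C3 were highest in 29C, the young mouse with the highest neutrophil marker sum (144.3 CPM against 16.5 to 22.8 CPM). The neutrophil sum of 3posI was the highest of all, at 163 CPM. It stood at 3.19 times the young mean, against 0.99 times in 2posI and 1.43 times in 4posI. Dendritic cell markers in 3posI summed to 2.83 times the young mean (1.79 in 2posI, 1.62 in 4posI). T and NK cell markers in 3posI summed to 8.18 times (3.62 in 2posI, 8.68 in 4posI). In its flow cytometry, and in cell sorting from female mice, the study gates microglia as CD45low CD11b+ cells. Such a gate is meant to leave out CD45-high leukocytes. The part of these cells in the values of Cfp, Cfb and C3 was not tested.

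**Figure D3:**
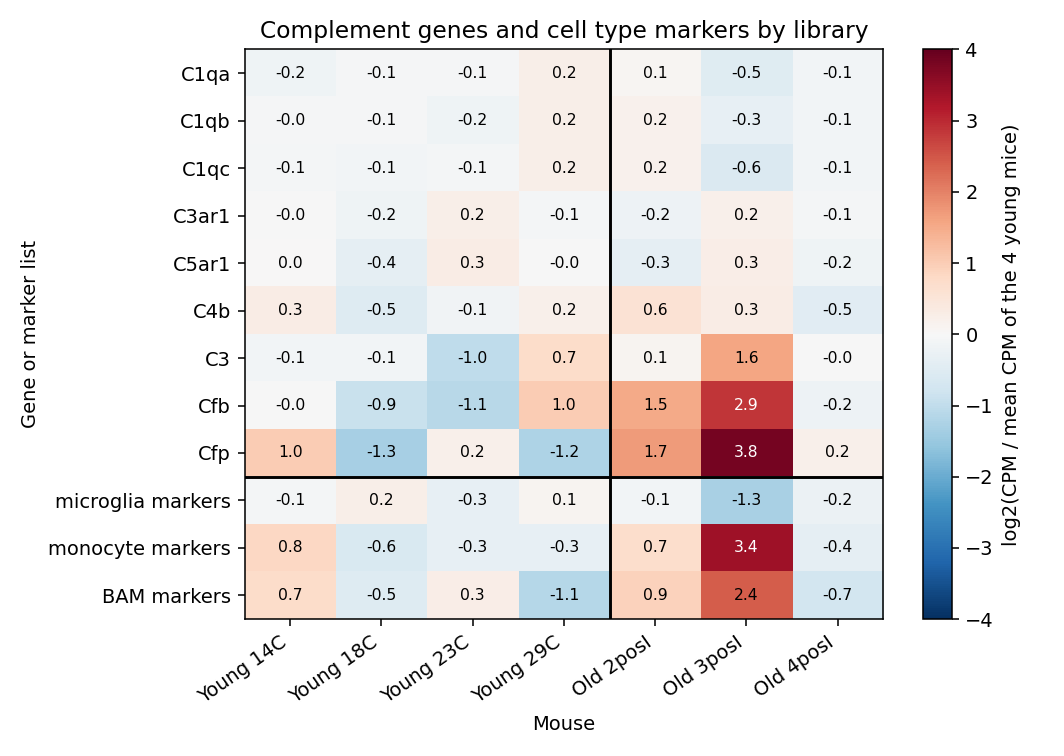
Colours and numbers give the log2 ratio of each CPM value to the mean of the 4 young mice, for 9 complement genes (top) and the summed microglia, monocyte and border-associated macrophage (BAM) markers (bottom), with 1 column per mouse. In 3posI, Cfp, Cfb, C3 and the monocyte and BAM sums are high together, while the C1q chains and the microglia sum are low.

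C4b encodes the C4 protein cleaved by the classical pathway. Its counts and its level per length gave different pictures of age. C4b measured 98.2, 55.9, 72.6 and 92.0 CPM in the young mice and 120, 97.9 and 57.9 CPM in the old mice, so that the ages overlapped. The log2 fold change of the counts was 0.21 (SE 0.27, 95% interval -0.41 to 0.82, edgeR adjusted p = 0.717). By TPM, C4b measured 32.15, 19.36, 23.71 and 31.32 in the young mice and 65.32, 40.46 and 29.54 in the old mice, with an exact permutation p = 0.0857. With the effective length of each library as an offset in edgeR, the log2 fold change was 0.90 and the adjusted p = 0.185.

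The difference lay in the effective length that RSEM gave the gene, which is an average over its transcripts weighted by their estimated abundance. It was 4382, 4274, 4447 and 3946 bases in the young mice and 2320, 3164 and 2872 bases in the old mice. Every old mouse lay below every young mouse, which held for C4b alone of the 9 and for 6.29% of the 12096 genes whose length varied, while 1572 of them were longer and 761 shorter in every old mouse. The log2 ratio of the mean lengths was -0.614, and 1.12% of those genes had a ratio as low or lower. C4b has a full-length transcript of 5379 bases and short transcripts of 763 bases (annotated as nonsense-mediated decay) and 749 bases (retained intron). Taking the short transcripts together, the lengths correspond to a full-length share of transcripts of 70.1 to 80.9% in the young mice and 34.9 to 53.1% in the old mice. The full-length part then amounted to 14.9 to 25.6 TPM in the young and 13.8 to 22.8 TPM in the old mice, which overlapped. The short part amounted to 4.42 to 9.38 TPM in the young and 15.7 to 42.5 TPM in the old mice, which did not. Most of the counts went to the full-length part in both ages. In the young mice the short part held 97.11 to 235.9 counts and the full-length part 2472 to 4507. In the old mice the short part held 360.7 to 824.5 counts and the full-length part 2396 to 3532. This split was chosen after the lengths were seen, is an estimate from gene-level values and was given no test. The ribosomal RNA share of the counts also differed without overlap, at 3.52 to 4.24% in the young and 1.62 to 2.84% in the old libraries, and its part in the lengths was not tested.

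**Figure D4:**
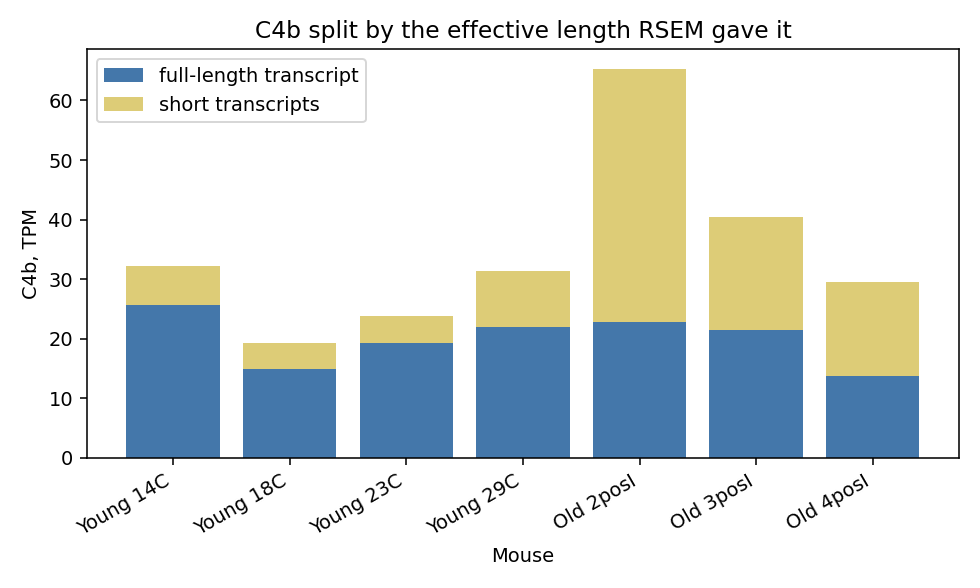
Bars are the TPM of C4b in each mouse, split into the full-length transcript (blue) and the short transcripts (yellow) by the effective length RSEM gave the gene. The blue part spans 13.8 to 25.6 TPM over both ages, while the yellow part is 4.42 to 9.38 TPM in young and 15.7 to 42.5 TPM in old mice.

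Reads of C4b can be confused with those of its neighbouring copy C4a. The full-length C4b and C4a transcripts were identical at 5160 of 5367 aligned bases (96.1%), and 34.6% of the 50-base windows in C4b transcripts were also found in C4a. The 60 coding bases of a single C4b exon with the most differences are shown with their C4a counterpart, with the 13 differing bases in capitals.
C4b, chr17:34735430-34735489, minus strand: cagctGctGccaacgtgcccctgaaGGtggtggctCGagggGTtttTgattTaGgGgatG
C4a, chr17:34816086-34816145, minus strand: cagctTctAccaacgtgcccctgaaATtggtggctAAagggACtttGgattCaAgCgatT
RSEM divides reads that match both copies, and C4b had a whole-number count in only 1 of 7 libraries. C4a was assigned 0, 2.92, 6.44 and 8.41 expected counts in the young mice and 95.63, 20.82 and 28.57 in the old mice. Every old mouse exceeded every young mouse, at a level far below that of C4b (2569.08 to 4661 counts). Between ages, C4a differed by 3.85 on the log2 scale (edgeR adjusted p = 0.098), and DESeq2 called it (adjusted p = 0.00185). With any 1 library left out, the edgeR adjusted p of C4a was 0.085 to 0.271. The upper end was without 2posI, where the log2 fold change was 2.66. Summing both genes left the log2 fold change of C4b at 0.23. Cfb shares 73.0% of its windows with the readthrough gene Gm20547, which was assigned 25.09 counts in 29C, 4.12 in 4posI and 0 elsewhere. The other 7 genes shared no window with another gene.

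Of 47 further complement genes listed, 27 were tested and 20 were too low. Those too low include Cfd, the protease that activates factor B (0 counts in all libraries), and Hc, which encodes C5 (at most 3 counts in any library). None of the 27 was called by edgeR (0.756% of all genes), 14 had a fold change above 0 and 13 below, and the median was 0.0012 on the log2 scale. The unadjusted p was under 0.05 for 5 of them, against 18.8% of all genes tested, and DESeq2 called 2, Itgax and C4a, against 7.85% of all genes. The ages did not overlap for 3, namely C4a, Cd55 and Itgax, all higher in old mice, against 8.61% of all genes that did so in that direction. These counts do not set the list apart from all genes. Cd55, a membrane regulator that disassembles convertases, was barely expressed, at 0.506 to 0.631 CPM in the young and 0.966 to 1.36 CPM in the old mice (edgeR adjusted p = 0.165). Of the 7 membrane regulators tested, Cd55 among them, 3 had a fold change above 0 and 4 below.

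Itgax encodes CD11c, the alpha chain of complement receptor 4, and is also a marker of dendritic cells and of activated microglia. It measured 19.2, 25.4, 15.4 and 27.0 CPM in the young mice and 45.7, 42.5 and 42.5 CPM in the old mice. Every old mouse lay above every young mouse, 3posI no more than the others. The log2 fold change was 1.00 (SE 0.19, 95% interval 0.56 to 1.44, edgeR adjusted p = 0.058). The adjusted p was 0.054 with limma-voom and 0.000378 with DESeq2. Within edgeR it was 0.030 without the filter on low counts and 0.0465 with the length offset, but 0.0504 with another filter on low counts. With any 1 library left out, the edgeR adjusted p was 0.076 to 0.180, so Itgax was not called. On the log2(TPM + 1) scale the limma adjusted p was 0.097. The sum of 5 other dendritic cell markers also separated the ages, at 3.85 to 6.68 CPM in the young and 8.52 to 14.9 CPM in the old mice. Of all single genes tested, 8.61% did so in that direction. Of the 5 dendritic cell markers, 3 had a fold change above 0 and 2 below, and none was called. The part of dendritic cells in Itgax was not tested.

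Itgam encodes CD11b, another complement receptor alpha chain, which was used for the sort. The gene overlaps Gm49368. Itgam measured 906, 924, 442 and 999 CPM in the young mice and 620, 445 and 564 CPM in the old mice. Young mouse 23C was the lowest of all 7, and the log2 fold change was -0.59 (SE 0.28, edgeR adjusted p = 0.300). With the length offset it was -0.92 (edgeR adjusted p = 0.122), and on the log2(TPM + 1) scale it was -0.99 (limma adjusted p = 0.120). The shared beta chain Itgb2 had a log2 fold change of 0.11 (edgeR adjusted p = 0.745). Vsig4, a receptor for C3b found on tissue macrophages, measured 2.65, 0.26, 4.17 and 0.94 CPM in the young mice and 20.8, 18.7 and 0.57 CPM in the old mice. As with Cfp, 2posI and 3posI were high and 4posI was not (edgeR log2 fold change 2.73, adjusted p = 0.225). Without 3posI the log2 fold change of Vsig4 was 2.40 (edgeR adjusted p = 0.327).

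The soluble regulator Clu, which encodes clusterin, had a log2 fold change of 0.0012 (edgeR adjusted p = 0.999). The membrane regulator Cr1l was the steadiest of the named genes, at 72.1 to 80.4 CPM in the young and 74.1 to 80.7 CPM in the old mice. The second C5a receptor C5ar2 (log2 fold change 0.12, edgeR adjusted p = 0.830) and the lectin pathway ficolin Fcna (0.91, adjusted p = 0.416) were not called.

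For each of the 9, the gene whose pattern over the 7 libraries was nearest, by the smallest root mean square (RMS) difference of centred log2 CPM among 8302 candidates, is given as a description over 7 libraries that differ in marker levels. C1qa and C1qc were nearest to Cyfip1 (RMS 0.0602 and 0.0411) and C1qb to Leprot (RMS 0.033). C3ar1 was nearest to Pdcd6ip (RMS 0.0384) and C5ar1 to P4hb (RMS 0.073). Cfp was nearest to Cd93 (RMS 0.377) and Cfb to Ms4a4c (RMS 0.558), both highest in 3posI. C3 was nearest to the chemokine gene Ccl9 (RMS 0.348), and C4b to Ybx1 (RMS 0.177).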

How the data were processed

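Expected counts, TPM and FPKM values per gene were made by the authors, who checked reads with FastQC 0.11.5, trimmed with skewer 0.2.2, mapped low-input Smart-seq2 reads (non-stranded per the labels) to GRCm38 with STAR and quantified with RSEM on GENCODE m15. For both mapping and quantification, the version is not given in the sources used here. No molecular identifiers are named. The authors also deposited an effective length per gene and library, used as an offset in 1 alternative.

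Here, expected counts were rounded (66.2% of those above 0 were whole within 0.001). Genes reaching more than 10 counts in 1 library or more were kept, without Y and mitochondrial genes (40 genes). X was kept, since Cfp is X-linked and all mice were male. edgeR 4.0.16 in R 4.3.3 gave TMM-normalised CPM and quasi-likelihood tests, with Benjamini-Hochberg adjustment over 18133 genes. Each library is 1 mouse. Alternatives used limma 3.58.1, DESeq2 1.42.0, other filters and scalings, and log2(TPM + 1) or log2(TPM + 0.1). Scripts were tested on simulated data. Positions and transcripts came from GENCODE vM21. Named genes are the 9, other listed complement genes averaging 10 CPM or more in either age, C4a and overlapping genes, and the nearest gene by pattern. 1 result of that rule is not reported here. Genes outside that rule (Cd55, Cfd, Hc) were named after their values were seen. The 9 genes and the lists were chosen with earlier results of these data known.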

Additional observations from a re-analysis of the deposited data

Results flagged for a closer look

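Of 23 values examined within the 4 young mice, 4 had a mouse far from the others by Dixon's ratio (the gap to the nearest mouse over the whole range, above its 95% critical value for 4 samples), where chance gives 1.2. C1qc had a ratio of 0.983, with 29C above the other 3 mice. The ratio was 0.881 for Clu, with 23C high, and 0.833 for Itgam, with 23C low. The summed monocyte markers had a ratio of 0.875, with 14C high.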

How the results depend on the processing

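None of the 9 genes was called under any alternative run, and the order of their TPM medians was the same by FPKM and by count per effective length. Over all genes, 137 were called by edgeR, 1423 by DESeq2, 298 without the filter on low counts and 214 with the length offset, and 1 to 154 when 1 library was left out (1 without 14C, 18C or 2posI, 2 without 29C, 15 without 23C, 75 without 4posI and 154 without 3posI). The share of calls higher in old mice was 73.0% and fell to 53.8% with DESeq2, 55.0% without the filter and 52.0% without 4posI. The causes were not tested. Among the other complement genes the count of 0 became 2 with DESeq2, 1 without the filter and 1 with the offset. Fold changes near 0 turned sign. With the length offset C3ar1 was 0.0126 and C5ar1 0.00301 on the log2 scale. Leaving out 1 library gave -0.221 to 0.0442 for C1qb, -0.329 to 0.0334 for C1qc, -0.0326 to 0.447 for C4b, -0.145 to 0.0772 for C3ar1 and -0.254 to 0.0652 for C5ar1, with 3posI out at the upper end for C1qb and C1qc and at the lower end for the receptors, and 2posI out at the lower end for C4b. The ranges were 0.05 to 1.11 for C3, 0.90 to 2.46 for Cfb and 1.14 to 3.22 for Cfp, the lower end always without 3posI. Cfp has no value with autosomes only. No paired analysis was possible because the labels give no number shared between young and old mice. With 3 against 4 mice and a biological coefficient of variation of 37.3%, intervals of low genes such as Cfb and Cfp are wide.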

Other observations

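Sums of T and NK cell markers were low but did not overlap between ages, at 0.272 to 0.705 CPM in the young and 1.68 to 4.03 CPM in the old mice. Of the 7 genes, Cd3e, Cd3d, Cd3g, Cd8a and Cd2 had 0 counts in 1 or more libraries, and none was called. Among single genes tested, 8.61% separated the ages in that direction. The sum of 5 fibroblast markers was highest in young mouse 23C, at 215.4 CPM against 5.98 to 51.2 CPM in the other libraries.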
